A study of Mus musculus with 12 samples.

Results

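Keratin genes were followed in RNA sequencing libraries of mouse fetal membranes, the sacs that surround the fetus. The family was taken as every gene of the count table whose mouse symbol is Krt followed only by digits, which gave 50 of 48795 genes. Of these, 40 had at least 1 count in some library, 10 had none, and 13 had enough counts to be tested. There were 3 libraries in each of 4 groups. The E12 DKO and E18 DKO groups lacked the genes of 2 collagen-binding proteoglycans, decorin (Dcn) and biglycan (Bgn), by double knockout (DKO), and were taken at embryonic days 12 and 18, with the strain given as C3H and C57BL/6. The E12 WT and E18 WT groups were wild-type mice at the same labelled days, of strain C3H, so genotype and strain cannot be told apart. Nothing in the labels says whether libraries of a group came from separate litters, so p-values measure only the spread between these libraries. The design set the genotypes side by side at both days.

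Keratins are the intermediate filament proteins of epithelial cells. Each filament is built from an acidic type I keratin paired with a basic type II keratin, and the pairs differ between kinds of epithelium. Krt8 and Krt18, with Krt7, Krt19 and Krt20, are the keratins of simple, single-layered epithelia, which in the membranes include amnion and yolk sac endoderm. Krt5 pairs with Krt14, or with the type I keratin Krt15, in the basal layer of stratified epithelia. Krt16 and Krt17 are induced in activated or wounded epidermis and skin appendages, while Krt1, Krt10, Krt4 and Krt13 mark suprabasal layers. The hair keratins build hair shafts and root sheaths.

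Depth was 19967593 to 33065424 counts per library, and the 50 keratins together took 0.197 to 0.719% of the counts. Levels are given as CPM, counts scaled with TMM factors to libraries of equal size, and as CPM per kb of exon where genes are set against each other. Bgn was at 14.3 to 25.1 CPM in the 6 DKO libraries and at 223 to 686 CPM in the 6 wild-type libraries, and Dcn at 4.67 to 8.44 CPM in the DKO and 198 to 978 CPM in the wild-type libraries. The embryonic share of beta-globin counts was 82.3 to 85.1% in E12 DKO, 1.33 to 2.67% in E18 DKO, but 74.8 to 87.8% in the libraries with the E18 WT label. In E12 WT it was 14.8% in library 1, against 95 and 97.1% in the other two. The labelled stage of wild-type libraries is therefore in doubt, the group is written as labelled E18 WT throughout, and genotype and developmental stage cannot be told apart at E18. All 11 markers of general epithelium and all 9 of visceral yolk sac endoderm exceeded a mean of 1 CPM in every group. In such bulk RNA, fewer cells of a type and less RNA per cell cannot be told apart.

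The promoter windows of 4 keratins are shown because their genes gave the clearest contrasts below: Krt5 and Krt14, the basal pair whose transcripts parted in E18 DKO, and Krt20 and Krt23, type I genes of the same cluster that were both lower there. Each line gives the 250 bases before the RefSeq start on the gene's own strand, 5′ to 3′, from the RefSeq table of build GRCm38.p6. Capitals mark TATAAA, or ATAA whose first base lies 20 to 35 bases before the start.
Krt5, minus strand, chr15:101712906-101713155: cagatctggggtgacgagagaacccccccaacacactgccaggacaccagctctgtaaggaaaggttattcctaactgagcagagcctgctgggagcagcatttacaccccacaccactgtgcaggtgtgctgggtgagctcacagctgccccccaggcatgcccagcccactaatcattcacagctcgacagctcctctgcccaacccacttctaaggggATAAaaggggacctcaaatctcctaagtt
Krt14, minus strand, chr11:100206031-100206280: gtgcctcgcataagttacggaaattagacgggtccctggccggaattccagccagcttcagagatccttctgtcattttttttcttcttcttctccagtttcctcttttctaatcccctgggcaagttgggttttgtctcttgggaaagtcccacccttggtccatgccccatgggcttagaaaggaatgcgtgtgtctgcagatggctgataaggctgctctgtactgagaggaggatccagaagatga
Krt20, minus strand, chr11:99438154-99438403: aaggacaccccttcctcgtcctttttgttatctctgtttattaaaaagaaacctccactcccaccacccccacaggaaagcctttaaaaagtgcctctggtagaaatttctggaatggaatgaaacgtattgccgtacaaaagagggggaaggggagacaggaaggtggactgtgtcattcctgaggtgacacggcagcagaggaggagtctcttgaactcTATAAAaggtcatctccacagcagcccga
Krt23, minus strand, chr11:99493121-99493370: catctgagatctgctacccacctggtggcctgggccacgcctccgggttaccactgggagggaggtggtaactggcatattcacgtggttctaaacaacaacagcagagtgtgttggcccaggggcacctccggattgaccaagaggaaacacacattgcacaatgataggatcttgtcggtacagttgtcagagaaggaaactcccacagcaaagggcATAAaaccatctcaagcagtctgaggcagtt

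The TATA motif TATAAA stood 29 to 24 bases before the start of Krt20, and ATAA began 29 bases before the start of Krt5, 28 before that of Krt20 and 31 before that of Krt23. The search for ATAA, on the gene's strand alone, was chosen after these windows had been read, and 6.87% of all 32851 windows of this length hold it in that place. The TATA motif TATAAA, the box CCAAT, the GC box GGGCGG, the AP-1 motif TGANTCA and the AP-2 motif GCCNNNGGC were searched on both strands, with overlaps allowed, and occur in 12.4, 33.8, 32.7, 6.75 and 13.7% of all windows. Apart from TATAAA in Krt20, these 5 motifs were not found in the 4 windows printed. Among the simple keratins, the Krt7 window held GGGCGG and the AP-2 motif, the Krt18 window held the AP-2 motif, and the Krt8 window held none of the 5. Of the 13 keratins described by library, 9 had a window. The windows of Krt14 and Krt7 lie inside the longer gene intervals that the count files give (chr11:100203162-100207548 and chr15:101411043-101430313). They are therefore not the bases before the starts of those intervals.

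The family's genes stand in a pair of clusters. On chromosome 11 there were 25 members between 99232761 and 100269871 (GRCm38), all type I, and on chromosome 15 there were 25 between 101349571 and 102032026, the type II genes and Krt18. By class, 5 members were simple keratins, 3 basal, 2 activation-associated, 10 suprabasal, 21 hair keratins and 9 others. Those without a count in any library were Krt2 and 9 hair keratins, Krt39, Krt40, Krt71, Krt72, Krt73, Krt74, Krt81, Krt83 and Krt84. In 27 members with counts, the mean was under 5 CPM in every group, and 23 of these stayed under 1 CPM in every library. The 13 members tested were the 5 simple keratins, the 3 basal ones, Krt17, the suprabasal Krt10 and Krt13, and Krt23 and Krt80 of the others.

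**Figure D1:**
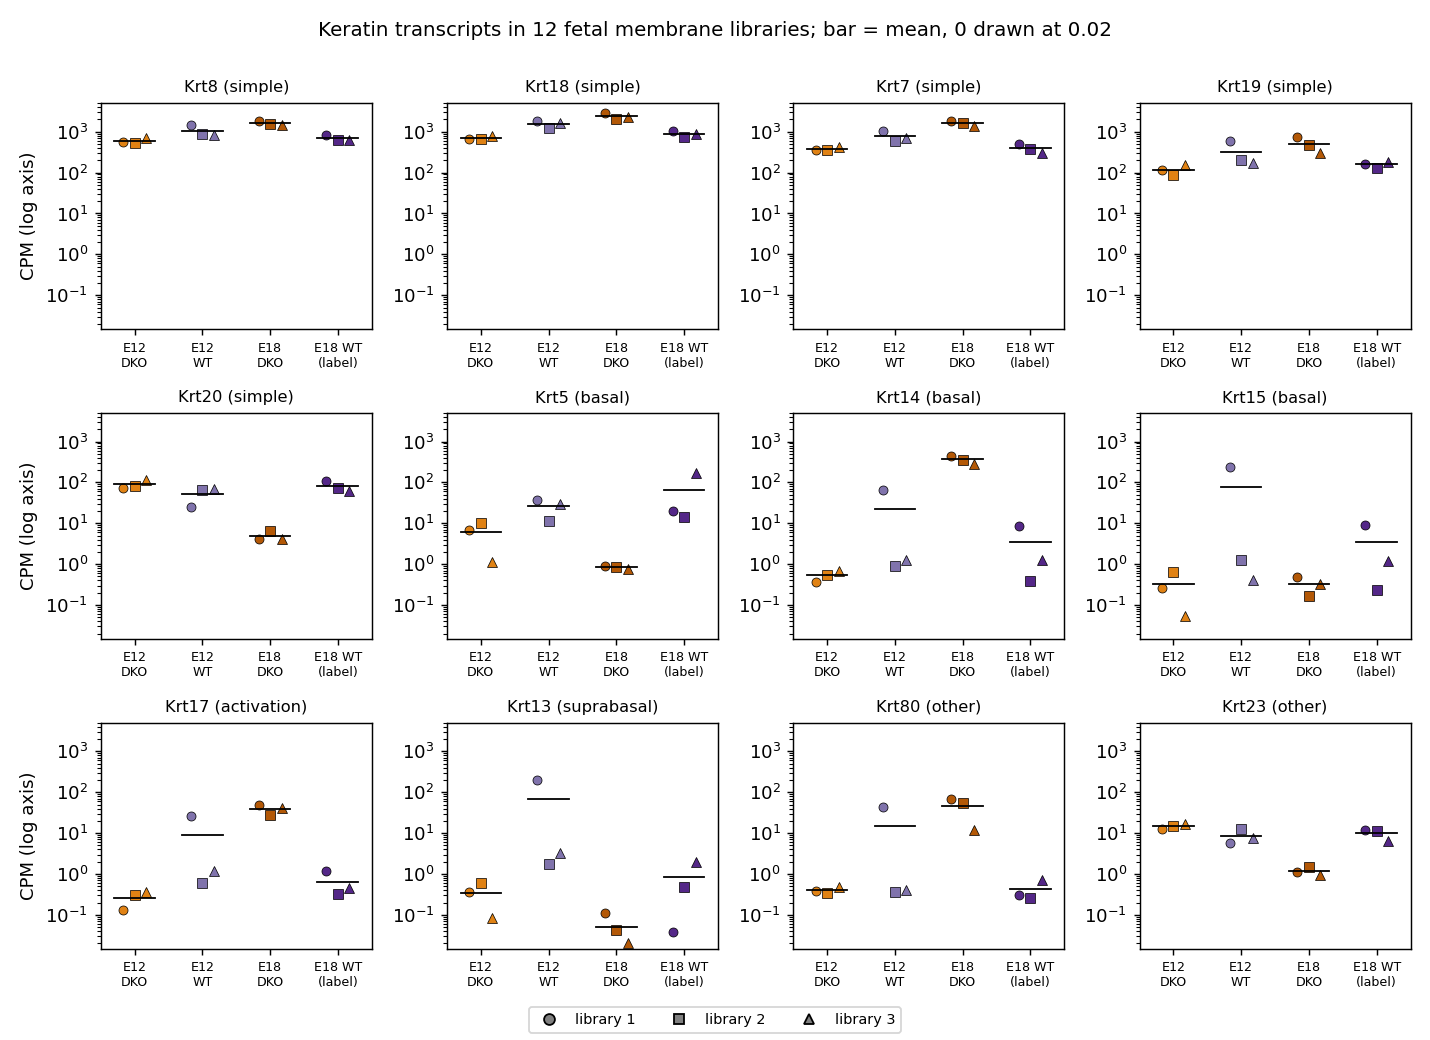
CPM of 12 keratins in each library on a log axis, in panels by gene, with groups on the horizontal axis, 1 point per library and a bar at the mean of 3. Krt14 sits at 281 to 454 CPM in E18 DKO while Krt5 sits at 0.762 to 0.879 CPM there, and Krt13 and Krt15 pass 100 CPM in E12 WT library 1 alone.

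Simple keratins made up most of the family's transcripts in every library. Per kb, the 5 together took 98.2 to 98.8% of keratin CPM in E12 DKO, 88.1 to 98.9% in E12 WT, 91.7 to 93.5% in E18 DKO and 93.2 to 98.4% in labelled E18 WT. Krt18 was the highest keratin per kb in each group, with means of 502 CPM per kb for E12 DKO, 1109 for E12 WT, 1738 for E18 DKO and 631 for labelled E18 WT. Its type II partner Krt8 came next, with means of 331, 580, 905 and 392 CPM per kb in the same groups. Krt7 is harder to place, because the files count 7055 bases of exon for it while its principal transcript in GENCODE M21 has 4094. With the shorter length its means were 92.4, 189, 397 and 95.8 CPM per kb, above those of Krt19 in each group. With the longer length they were 53.6, 110, 230 and 55.6 CPM per kb, below those of Krt19, whose means were 63.8, 177, 269 and 86.1. Which of these neighbours is higher thus depends on the length used.

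E18 DKO and labelled E18 WT differed in most of the tested keratins. Called at an adjusted p under 0.05 (edgeR quasi-likelihood test, Benjamini-Hochberg over 18153 genes) were 10 of 13, 7 higher and 3 lower in E18 DKO than in labelled E18 WT, while 42.3% of all tested genes were called, 20.5% higher and 21.8% lower. With library size alone in place of TMM, 28.4% of all called genes were higher, against 48.5% with TMM, and the keratins still divided into 7 higher and 3 lower. The median log2 fold change of the 13 was 1.21, beside -0.04 over all tested genes. The summed CPM of the family was 7887, 6233 and 5842 in E18 DKO, against 2699, 1982 and 2253 in labelled E18 WT.

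All 4 of the abundant simple keratins were higher in E18 DKO. Krt8 (chr15:101996711-102004342), the type II keratin of nearly all simple epithelia, was at 1850.0, 1585 and 1463 CPM in E18 DKO, against 844, 635 and 640.3 CPM in labelled E18 WT. Krt18 (chr15:102028216-102032026), its type I partner, was at 2883, 2060.0 and 2355 CPM in E18 DKO, against 1034, 735 and 878 CPM in labelled E18 WT. The groups did not overlap for either gene, and the log2 fold changes were 1.21 ± 0.25 for Krt8 (SE, n = 3 per group, adjusted p = 0.00337) and 1.46 ± 0.23 for Krt18 (adjusted p = 0.000845). Krt7 (chr15:101411043-101430313), a type II keratin of ductal and glandular epithelia, was at 1835, 1670.0 and 1371 CPM in E18 DKO, against 499, 375 and 303 CPM in labelled E18 WT. Every E18 DKO library was above every one labelled E18 WT, with a log2 fold change of 2.05 ± 0.26 (adjusted p = 0.000279). Krt19 (chr11:100140810-100148665), the small type I keratin that lacks a typical tail domain, was at 734, 460.4 and 304 CPM in E18 DKO, against 161, 132 and 187 CPM in labelled E18 WT. These groups did not overlap either, and the log2 fold change was 1.64 ± 0.47 (adjusted p = 0.0167). The Krt19 call was lost without E18 DKO 1 (adjusted p = 0.0721), without library 1 labelled E18 WT (0.0507) and without library 2 of that label (0.0631).

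Krt20, the type I keratin best known from intestinal epithelium and urothelial umbrella cells, went the other way within the same class. Krt20 (chr11:99428403-99438150, promoter above) was at 4.07, 6.48 and 4.03 CPM in E18 DKO, against 107, 73.7 and 62.5 CPM in labelled E18 WT. All 3 E18 DKO libraries lay far below the others, with a log2 fold change of -4.05 ± 0.42 (adjusted p = 0.000124). Relative to Krt8 per kb, Krt20 was at 0.00206, 0.00383 and 0.00258 in E18 DKO, against 0.118, 0.109 and 0.0914 in labelled E18 WT. Krt23 (chr11:99477974-99493137), another type I gene of the cluster, was at 1.10, 1.49 and 0.926 CPM in E18 DKO, against 11.7, 11.6 and 6.36 CPM in labelled E18 WT. The groups were again apart, with a log2 fold change of -3.06 ± 0.37 (adjusted p = 0.000207).

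The basal keratins did not move as a pair. Krt14 (chr11:100203162-100207548), the type I keratin of basal cells, was at 454, 359.5 and 281 CPM in E18 DKO, against 8.59, 0.381 and 1.27 CPM in labelled E18 WT. Krt5 (chr15:101707070-101712891), its usual type II partner, was at 0.879, 0.853 and 0.762 CPM in E18 DKO, against 19.6, 14.4 and 166 CPM in labelled E18 WT. Krt14 was thus higher and Krt5 lower in every E18 DKO library. Krt14 rose by a log2 fold change of 6.75 ± 1.65 (adjusted p = 0.00753), which ran from 6.20 to 8.82 over the alternatives and was 8.82 without library 1 labelled E18 WT. Krt5 had a log2 fold change of -6.31 ± 1.17 (adjusted p = 0.00176), which became -4.35 without library 3 of that label, the one at 166 CPM. Per kb, the ratio of Krt14 to Krt5 was 644, 525 and 459.7 in E18 DKO and 0.545, 0.0329 and 0.00956 in labelled E18 WT. Krt15, the remaining basal keratin, was at 0.495, 0.171 and 0.327 CPM in E18 DKO, against 8.97, 0.234 and 1.19 CPM in labelled E18 WT, the groups overlapping, and was not called (adjusted p = 0.221).

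**Figure D2:**
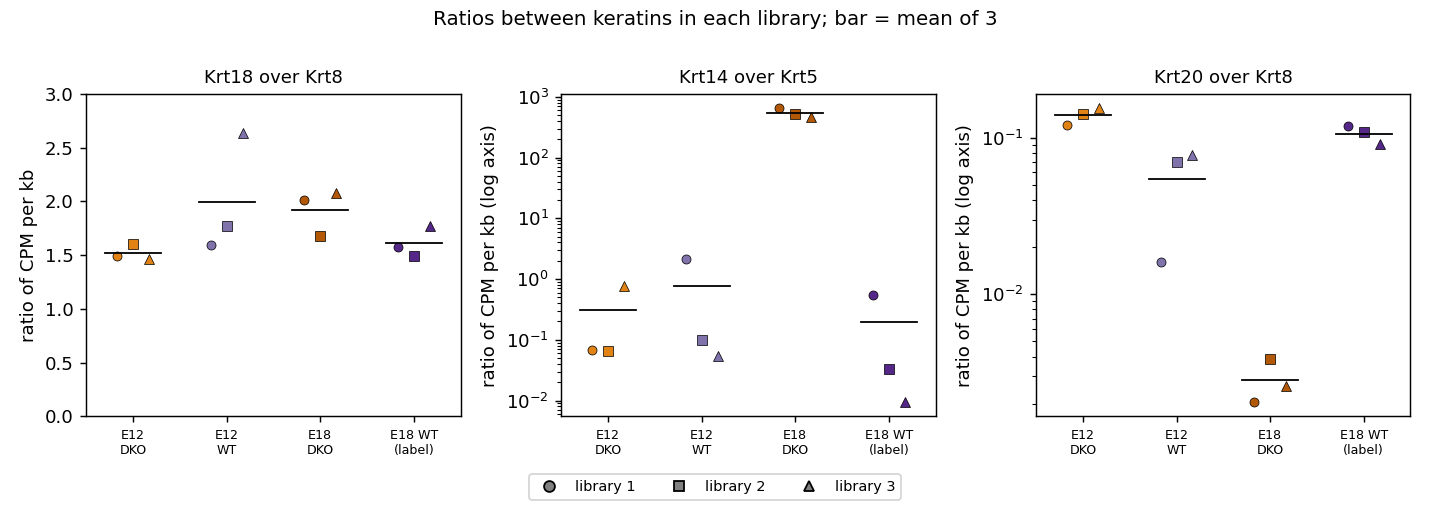
Ratios of CPM per kb in each library, with Krt18 over Krt8 on a linear axis and Krt14 over Krt5 and Krt20 over Krt8 on log axes, 1 point per library and a bar at the mean of 3. Krt18 over Krt8 stays between 1.46 and 2.64 in all 12 libraries, while Krt14 over Krt5 lies at 459.7 to 644 in E18 DKO and at 2.15 or less in the other 9.

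Krt17 and Krt80 were higher together with Krt14. Krt17 (chr11:100256217-100261029), a type I keratin of skin appendages and wounded epidermis, was at 49.4, 28.1 and 41.5 CPM in E18 DKO, against 1.17, 0.322 and 0.451 CPM in labelled E18 WT. Krt80 (chr15:101349571-101370125), a type II keratin found near the cell margin of differentiating epithelia, was at 69.2, 55.6 and 12.3 CPM in E18 DKO, against 0.301, 0.264 and 0.698 CPM in labelled E18 WT. Neither gene overlapped between the groups. The log2 fold changes were 5.94 ± 1.28 for Krt17 (adjusted p = 0.00391), becoming 6.67 without library 1 labelled E18 WT, and 6.78 ± 1.69 for Krt80 (adjusted p = 0.00846). Krt16, the other activation-associated member, was too low to be tested, with 15, 7 and 48 counts in E18 DKO and 0 in the other 9 libraries. Set against a floor of 3 counts per library, its mean CPM in E18 DKO was at least 11.5-fold higher than in labelled E18 WT, and at least 5.20-fold higher without E18 DKO 3, the library with most of its counts.

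The type II keratins Krt6a and Krt6b, induced beside Krt16 and Krt17 in wounded skin, carry a letter in their symbols and were not members. Krt6a was at 148, 142 and 69.8 CPM in E18 DKO, against 0.565, 0.557 and 0.903 CPM in labelled E18 WT, without overlap. Its log2 fold change was 7.47 ± 1.73 (adjusted p = 0.00573). Krt6b was far lower, at 4.45, 1.75 and 2.45 CPM in E18 DKO, against 0.0754, 0 and 0.328 CPM in labelled E18 WT. Krt14, Krt16 and Krt17, and likewise Krt6a and Krt6b, are close in sequence, so reads may have been lost or exchanged among them, and the lower member of each set is uncertain. Per kb, Krt6a had the highest mean of the type II keratins outside the simple class in E18 DKO, at 53.1 CPM per kb, beside 25.8 for Krt80, 0.380 for Krt5 and 208 for the type I keratin Krt14.

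Suprabasal keratins stayed low. Krt13, the type I keratin of the suprabasal layers of internal stratified epithelia, was at 0.110, 0.0427 and 0 CPM in E18 DKO, against 0.0377, 0.469 and 1.97 CPM in labelled E18 WT. Krt10, the type I keratin of suprabasal epidermis, was at 3.46, 3.20 and 3.92 CPM in E18 DKO, against 2.37, 1.79 and 2.87 CPM in labelled E18 WT. Neither was called (adjusted p = 0.235 for Krt13 and 0.184 for Krt10). Krt1, the epidermal partner of Krt10, had no count in E18 DKO and at most 0.678 CPM in any library.

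**Figure D3:**
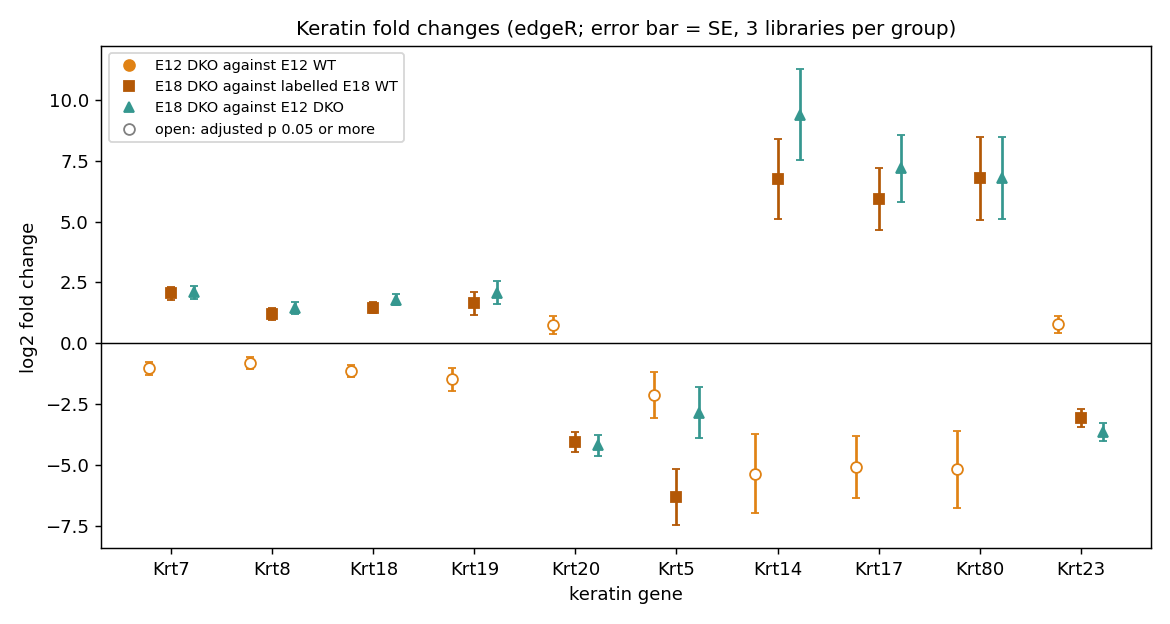
Log2 fold changes from edgeR with their SE for 10 keratins in 3 comparisons of 3 against 3 libraries, with filled symbols for adjusted p under 0.05 and open symbols otherwise. The E18 DKO points lie at 1.21 or more for Krt7, Krt8, Krt18, Krt19, Krt14, Krt17 and Krt80 and at -2.85 or less for Krt20, Krt5 and Krt23, while no E12 genotype point is filled.

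Markers of other cell types differed between E18 DKO and labelled E18 WT as well. The counts called below stand beside 42.3% of all tested genes, 20.5% higher and 21.8% lower. Called in either direction, the 2 of 7 for trophoblast and decidua and the 3 of 9 for yolk sac endoderm lie under that 42.3%. The 6 amnion epithelium markers summed to 9.62, 8.27 and 7.03 CPM in E18 DKO, against 18.4, 59.2 and 327 CPM in labelled E18 WT, with 4 of 6 called lower and none higher. Its defining marker Gabrp was at 0.128 to 0.218 CPM in E18 DKO, against 4.52 to 269 CPM in labelled E18 WT, the highest value being in the library with most Krt5. Amnion markers were thus low in the group where Krt5 was low. The 10 markers of trophoblast and decidua summed to 40.2, 71.0 and 30.3 CPM in E18 DKO, against 107, 105 and 957 CPM in labelled E18 WT, with 2 of 7 tested called lower and none higher. The library highest in Krt5 and Gabrp, labelled E18 WT 3, stood apart here too, with 556 CPM of Tpbpa and 165 CPM of Prl3b1, both placental genes. Neither Tpbpa nor Prl3b1 was called, the 2 called being Hand1 and Prl8a2. The 6 mesothelium markers summed to 2717, 1867 and 1757 CPM in E18 DKO, against 93.7, 98.8 and 240 CPM in labelled E18 WT, with 4 of 6 called higher and none lower. Mesothelin (Msln) made up most of that sum, at 1149 to 1912 CPM in E18 DKO and 2.00 to 53.7 CPM in labelled E18 WT. Mesothelial markers were thus high in the group where Krt14, Krt17 and Krt80 were high. The 10 markers of cornifying epidermis summed to 627, 582 and 458 CPM in E18 DKO, against 70.0, 72.9 and 74.8 CPM in labelled E18 WT, with 4 of 7 tested called higher. That rise lay in Dmkn, Sbsn, Tgm1 and Cnfn, while the defining cornified envelope genes Lor, Ivl and Flg stayed under 1 CPM in every library. General epithelium markers summed to 2222, 2750 and 2422 CPM in E18 DKO, against 1762, 1637 and 1493 CPM in labelled E18 WT, with 4 of 11 called higher and 2 lower. The 6 stroma markers summed to 3236, 2657 and 4739 CPM in E18 DKO, against 13790, 16890 and 30110 CPM in labelled E18 WT, with 5 of 6 called lower. The 9 markers of visceral yolk sac endoderm, itself an epithelium with simple keratins, summed to 81150, 113800 and 163000 CPM in E18 DKO, against 81580, 77650 and 53390 CPM in labelled E18 WT. Of these 9, 3 were called higher and none lower. Apolipoprotein Apoa1 averaged 36320 CPM in E18 DKO and 7382 CPM in labelled E18 WT, Apoa4 9538 and 3158 CPM in these groups, and the retinol carrier Rbp4 1873 and 943 CPM. Among those not called, Cubn (671 and 1440 CPM), Hnf4a (181 and 230 CPM) and Amn (184 and 220 CPM) had lower means in E18 DKO. Afp, Apob and Ttr, also not called, had higher means there. Uterine epithelium markers summed to 122 to 188 CPM in E18 DKO and 56.3 to 96.9 CPM in labelled E18 WT, with 2 of 5 tested called higher and 1 lower. The part of these cell types in the keratin differences was not tested.

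**Figure D4:**
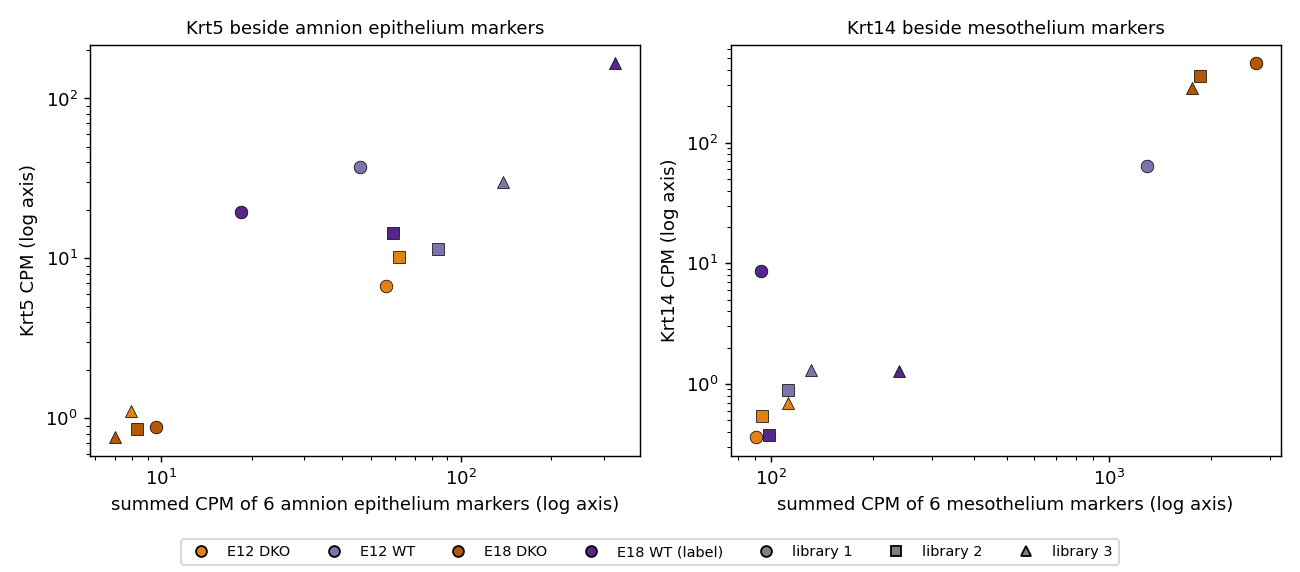
Krt5 CPM against the summed CPM of 6 amnion epithelium markers (left) and Krt14 CPM against that of 6 mesothelium markers (right) in each of the 12 libraries, on log axes, with color for the group and shape for the library number. The 3 E18 DKO libraries lie with E12 DKO library 3 at the lower left for Krt5 and alone at the upper right for Krt14, and E12 WT library 1, with 1297 CPM of mesothelium markers, stands nearest to them on the right.

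Genes that anchor keratin filaments were mostly higher as well. Of 14 tested, 8 were called higher and 1 lower in E18 DKO, with a median log2 fold change of 0.63, beside -0.04 over all tested genes, of which 20.5% were called higher and 21.8% lower. Itgb4, the hemidesmosomal integrin subunit, averaged 194.7 CPM in E18 DKO and 53.8 CPM in labelled E18 WT (log2 fold change 1.86 ± 0.42, adjusted p = 0.00484). Plec, the plectin linker that ties keratins to hemidesmosomes, averaged 448 CPM in E18 DKO and 155 CPM in labelled E18 WT (1.53 ± 0.35, adjusted p = 0.00562). Ppl, the periplakin of the cornified envelope and desmosomes, averaged 299 CPM in E18 DKO and 23.6 CPM in labelled E18 WT (3.66 ± 1.04, adjusted p = 0.016). Tchp was the gene called lower, averaging 11.5 and 15.9 CPM in these groups (-0.472 ± 0.155, adjusted p = 0.0304). Not called were Itga6, with a higher mean in E18 DKO, and Dsp (98.1 and 134 CPM), Col17a1, Pkp1 and Evpl, with lower means. Of 17 epithelial transcription factors tested, 3 were called higher and 5 lower, so that the 8 called were a share near the 42.3% of all tested genes. Cebpb, a factor of epidermal differentiation, was among the higher ones (2.35 ± 0.27, adjusted p = 0.000168), as was Klf5 (2.82 ± 0.81, adjusted p = 0.0167). Grhl3, a factor needed for the epidermal barrier, averaged 0.108 CPM in E18 DKO and 11.7 CPM in labelled E18 WT (-6.61 ± 1.16, adjusted p = 0.0013), and Gata3 and Tfap2a were lower too. Of 12 other intermediate filament genes tested, 3 were called higher and 4 lower. Vim, the filament of mesenchymal cells, averaged 1264 CPM in E18 DKO and 408 CPM in labelled E18 WT (1.63 ± 0.36, adjusted p = 0.00417). The nuclear lamin Lmnb1 averaged 10.3 CPM in E18 DKO and 138 CPM in labelled E18 WT (-3.74 ± 0.37, adjusted p = 0.000103), while Lmna was higher (1.02 ± 0.22, adjusted p = 0.00361).

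Within the DKO genotype, the later stage differed from the earlier one in the same number of keratins. Of 13 tested, 10 were called between E18 DKO and E12 DKO, 7 higher and 3 lower at E18, beside 46.0% of all tested genes, 23.2% higher and 22.8% lower. With library size alone, 32.1% of all called genes were higher, against 50.3% with TMM, and the keratin split was again 7 and 3. This comparison uses the same E18 DKO libraries as the one above, so the values of both are only set side by side. The summed CPM of the family was 7887, 6233 and 5842 in E18 DKO, against 1789, 1773 and 2176 in E12 DKO.

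The simple keratins of E12 DKO were close to each other across libraries. Krt8 was at 564, 544 and 687 CPM in E12 DKO, giving a log2 fold change at E18 of 1.45 ± 0.25 (adjusted p = 0.00116). Krt18 was at 652, 677 and 779.9 CPM in E12 DKO (1.79 ± 0.24, adjusted p = 0.000245). Krt7 was at 364, 349 and 421 CPM (2.10 ± 0.26, adjusted p = 0.000194). All 3 were higher in every E18 DKO library than in any E12 DKO library. Krt19, at 113, 89.2 and 153 CPM in E12 DKO, rose likewise (2.08 ± 0.48, adjusted p = 0.00515). Krt20 was at 72.7, 82.9 and 113 CPM in E12 DKO, against which it fell to 4.03 to 6.48 CPM at E18 (-4.20 ± 0.42, adjusted p = 8.57e-05). Krt23 was at 12.3, 15.2 and 16.5 CPM in E12 DKO (-3.63 ± 0.38, adjusted p = 9.85e-05).

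Krt14 was nearly absent from E12 DKO, at 0.361, 0.542 and 0.692 CPM, so the log2 fold change at E18 was 9.40 ± 1.88 (adjusted p = 0.00236). Krt17 was at 0.132, 0.305 and 0.36 CPM (7.18 ± 1.37, adjusted p = 0.00185), and Krt80 at 0.394, 0.339 and 0.471 CPM (6.81 ± 1.69, adjusted p = 0.00733). For these genes too the groups did not overlap. Krt6a was at 0.657, 1.29 and 2.16 CPM in E12 DKO (6.44 ± 1.62, adjusted p = 0.00811). Krt5 was at 6.70, 10.3 and 1.11 CPM in E12 DKO, with library 3 only just above the E18 DKO values. Its log2 fold change was -2.85 ± 1.05 (adjusted p = 0.0454), and the call was lost under 9 of 21 alternatives, with adjusted p from 0.0502 to 0.336 among those 9. The amnion epithelium sum in the same E12 DKO libraries was 56.1, 62.3 and 7.89 CPM, lowest in the library with least Krt5. That order did not hold in other groups. In E12 WT the sums were 46.0, 84.0 and 137 CPM, lowest in library 1, which had the most Krt5, and libraries 1 and 2 labelled E18 WT, with sums of 18.4 and 59.2 CPM, had 19.6 and 14.4 CPM of Krt5. Krt16 had no count in E12 DKO, and its mean in E18 DKO was higher by at least 13.2-fold on the floor of 3 counts per library, or by at least 5.94-fold without E18 DKO 3.

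Filament anchoring genes gave 5 called higher and 1 lower of 14 between E18 DKO and E12 DKO, epithelial transcription factors 5 and 5 of 17, and other intermediate filaments 3 and 3 of 12. The 6 of 14, 10 of 17 and 6 of 12 called in either direction stand beside 46.0% of all tested genes, and lie near that share. The mesothelium sum was 2717, 1867 and 1757 CPM in E18 DKO, against 90.2, 93.9 and 113 CPM in E12 DKO, with 4 of 6 markers called higher and none lower. Markers of cornifying epidermis summed to 627, 582 and 458 CPM in E18 DKO, against 73.6 to 86.1 CPM in E12 DKO, with 5 of 7 tested called higher and none lower. Stroma markers summed to 3236, 2657 and 4739 CPM in E18 DKO, against 12700, 15540 and 15760 CPM in E12 DKO, with 5 of 6 called lower and 1 higher. The part of these cell types in the keratin differences was not tested.

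At E12 no keratin passed the test between the genotypes. Of 13 tested, 0 were called by edgeR's quasi-likelihood test, beside 0.353% of all tested genes, 0.0936% higher and 0.259% lower, while 12 had an unadjusted p under 0.05, a level that 24.3% of all tested genes reached. DESeq2's Wald test called 7, all lower in E12 DKO, and limma voom called 1, Krt18. Without E12 WT 1, edgeR called 4, Krt7, Krt10, Krt12 and Krt18, and without E12 WT 2 it called 3, Krt13, Krt17 and Krt18, all lower in E12 DKO. Calls over all genes moved too, from 0 to 3753 over the alternatives and from 1 to 3199 with 1 library left out. The keratin counts of these alternatives are therefore not to be set against the 0.353%, which stands for 64 genes. With library size alone 74.5% of the called genes were higher in E12 DKO, against 26.6% with TMM, and no keratin was called with either. The median log2 fold change of the 13 was -1.47, beside -0.08 over all tested genes. That median is the value of Krt19, which became -0.66 without E12 WT 1. Among the E12 libraries, Krt13, Krt14, Krt15, Krt17 and Krt80 were high in E12 WT 1 alone, so the median leans on that library.

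The abundant simple keratins gave lower values in E12 DKO, without a call. Krt8 was at 544 to 687 CPM in E12 DKO, against 1446, 878 and 818 CPM in E12 WT (log2 fold change -0.81 ± 0.25, adjusted p = 0.106). Krt18 was at 652 to 779.9 CPM in E12 DKO, against 1782, 1203 and 1672 CPM in E12 WT (-1.14 ± 0.23, adjusted p = 0.0633). Krt7 was at 349 to 421 CPM in E12 DKO, against 1029, 606 and 683 CPM in E12 WT (-1.03 ± 0.26, adjusted p = 0.0769). For all 3 genes every E12 DKO library lay below every E12 WT library. Krt19 was at 89.2 to 153 CPM in E12 DKO, against 608, 202 and 173 CPM in E12 WT (-1.47 ± 0.47, adjusted p = 0.112), and the value became -0.66 without E12 WT 1. Krt20 was at 72.7 to 113 CPM in E12 DKO, against 24.8, 65.9 and 67.6 CPM in E12 WT (0.76 ± 0.36, adjusted p = 0.224). It was the simple keratin with the higher values in E12 DKO, again without overlap between the groups. The share of all tested genes without overlap is not given, so these separations carry no weight beyond the tests.

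One E12 WT library carried keratins of stratified epithelium that its group did not share. E12 WT 1 held 232 CPM of Krt15, 197 CPM of Krt13, 64.2 CPM of Krt14, 43.7 CPM of Krt80, 25.9 CPM of Krt17 and 17.6 CPM of Krt78, a type II keratin of stratified epithelia. In the other E12 WT libraries none of these 6 passed 3.30 CPM, and in E12 DKO none passed 0.692 CPM. The log2 fold change of Krt13 was -7.59 ± 1.88 (adjusted p = 0.0767) and became -2.84 without E12 WT 1. That of Krt15 was -7.95 ± 2.30 (adjusted p = 0.0954) and became -1.42 without it. Krt5 was at 6.70, 10.3 and 1.11 CPM in E12 DKO, against 37.1, 11.4 and 30.0 CPM in E12 WT, so it did not single out E12 WT 1. The same library had 14.8% embryonic beta-globin and a mesothelium sum of 1297 CPM, against 112 and 131 CPM in the other E12 WT libraries, and 273 CPM of cornifying epidermis markers, against 99.2 and 82.2 CPM. Not all markers of these lists were high there. Lrrn4 was at 0.132 CPM in E12 WT 1, against 5.32 and 1.47 CPM in the others, while the remaining mesothelium markers were highest in it. Lor, Ivl and Flg were at 0.0881 CPM or less in that library, while Dmkn, Sbsn, Cdsn and Cnfn were highest in it within E12 WT. The part of such cells in its keratins was not tested. Of the keratins high in E12 WT 1, E18 DKO carried Krt14, Krt17, Krt80 and the non-member Krt6a (112 CPM in E12 WT 1), but neither Krt13, Krt15 nor Krt78, the last of which was at 0, 0 and 0.272 CPM there.

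Between the wild-type groups no keratin was called. Of 13 tested, edgeR's quasi-likelihood test called 0, beside 0.953% of all tested genes, 0.292% higher and 0.661% lower, with 8 at an unadjusted p under 0.05, which 18.1% of all tested genes reached. DESeq2's Wald test called 4, Krt7, Krt17, Krt18 and Krt80, all lower in labelled E18 WT, and limma voom called 0. Calls over all genes ran from 35 to 1684 over the alternatives, so these counts are not to be set against the 0.953%. With library size alone 66.5% of the called genes were higher, against 30.6% with TMM. The log2 fold changes of the abundant simple keratins between the libraries labelled E18 WT and E12 WT were -0.98 for Krt7, -0.57 for Krt8, -0.81 for Krt18 and -1.04 for Krt19, and that of Krt20 was 0.62, with adjusted p from 0.0995 to 0.392. Krt5 was at 19.6, 14.4 and 166 CPM in labelled E18 WT, against 37.1, 11.4 and 30.0 CPM in E12 WT. Its log2 fold change of 1.35 (adjusted p = 0.455) became -0.62 without library 3 labelled E18 WT. That of Krt13 was -6.37 (adjusted p = 0.113), becoming -1.63 without E12 WT 1, and that of Krt15 was -4.50 (adjusted p = 0.243), becoming 2.02 without it.

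The difference between the DKO and wild-type groups was not the same at both labelled stages. Genotype, strain and developmental stage cannot be told apart in this contrast. Of 13 tested keratins, 11 were called for the difference between the log2 fold changes at E18 and E12, 8 more positive and 3 more negative at E18, beside 41.9% of all tested genes, 21.6% positive and 20.3% negative. With library size alone 25.4% of the called differences were positive, against 51.6% with TMM, and the keratins divided into 7 and 3. For Krt7 the difference was 3.08 ± 0.37 (adjusted p = 0.00026), the fold change being 2.05 at E18 and -1.03 at E12. For Krt18 it was 2.60 ± 0.33 (adjusted p = 0.000321), for Krt8 2.02 ± 0.36 (0.00151) and for Krt19 3.12 ± 0.67 (0.00411). Krt20 had -4.82 ± 0.55 (adjusted p = 0.000226) and Krt23 -3.84 ± 0.49 (0.000346). Krt5 had -4.19 ± 1.39 (adjusted p = 0.0317), a call kept in 10 of 20 alternatives, with -2.23 (adjusted p = 0.0949) without library 3 labelled E18 WT. The differences of Krt14, Krt17 and Krt80 were 12.10, 11.03 and 11.96, and were 7.73, 7.61 and 6.69 without E12 WT 1, with the call kept, as was that of Krt19, at 2.31 without that library. The last called member, Krt10, falls outside the rule for named genes and was singled out after its value had been seen, with a difference of 1.52 ± 0.48 (adjusted p = 0.0266). The Krt10 call was kept in 12 of 20 alternatives and lost in 8, with adjusted p up to 0.172.

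Pairing within the family was steadiest for the simple keratins. The ratio of Krt18 to Krt8, per kb, was 2.01, 1.68 and 2.08 in E18 DKO and 1.58, 1.49 and 1.77 in labelled E18 WT. It was 1.49, 1.61 and 1.46 in E12 DKO and 1.59, 1.77 and 2.64 in E12 WT, whose library 3 had 21.2% mitochondrial counts, against 3.58 to 7.78% in the other 11. All type I keratins together over all type II gave 2.08, 1.70 and 2.01 in E18 DKO and 1.64, 1.56 and 1.62 in labelled E18 WT. At E12 this ratio was 1.56, 1.65 and 1.61 in E12 DKO and 1.92, 1.76 and 2.36 in E12 WT. With the principal transcript length of Krt7 the same ratio ran from 1.42 to 2.10 over the 12 libraries. These ratios are descriptions and were not tested. The basal class made up 6.36, 6.62 and 5.26% of keratin CPM per kb in E18 DKO through Krt14, against 1.31, 0.658 and 6.20% in labelled E18 WT, where the highest share was that of the library with 166 CPM of Krt5.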

How the data were processed

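RNA was sequenced from frozen, ground fetal membranes with a stranded mRNA kit, per the labels' protocols. Trimmomatic 0.36, STAR 2.4.2a, Subread 1.5.0 with featureCounts and the build GRCm38 are named in the submitters' processing notes. Per the file headers, featureCounts 1.5.0 used Ensembl release 86 with strand option 2. The deposited values are raw counts per gene, with no normalization by the authors. Reads shared by near-identical keratins or pseudogenes may be lost.

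The series table held 48795 genes, of which 48349 matched a symbol. The files of 11 libraries equal 1 of its columns exactly, and E12 DKO 1 was taken from the series table. The columns of E18 WT carry other numbers than the titles and were joined by identical counts.

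Genes were filtered with filterByExpr, leaving 18153, scaled with TMM and fitted in 1 edgeR 4.0.16 quasi-likelihood model (R 4.3.3, a mean per group, 8 residual degrees of freedom and a common coefficient of biological variation of 0.373). P-values were adjusted by Benjamini-Hochberg over all tested genes and called under 0.05. Alternatives were other scalings, DESeq2 1.42.0, limma voom 3.58.1, other filters, the groups compared alone, a replicate block and each library left out in turn. The procedure was tested on simulated data. At E12 it called 8.42% of genes given a 2-fold change and 68.4% of those given a 4-fold change. At E18 these shares were 3.03 and 58.6%. Of unchanged genes it called 0.0114% at E12 and 0.0342% at E18. Changes of about 2-fold were thus mostly missed in the simulation, where only a small part of the genes was changed. In the data, 0.353% of tested genes were called at E12 but 42.3% at E18, so the simulated shares do not describe the E18 test. That test called Tchp at a log2 fold change of -0.472.

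Levels by library are given for members with a mean of 5 CPM or more in some group. Those of Krt1, Krt10, Krt12, Krt16, Krt32 and Krt6b lie outside that rule and were chosen after their values had been seen. Fold changes are named for called members at that level in a group compared, and for all members with a mean of 50 CPM or more. The members and lists were chosen with earlier results of these data known. Floors of 3 counts per library cover counting error only.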

Additional observations from a re-analysis of the deposited data

Results flagged for a closer look

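A test of the difference itself (E18 minus E12, edgeR quasi-likelihood, adjusted over all tested genes) called 41.9% of all tested genes. Krt10 was called too, but lies under the level for named genes. For 10 other keratins the log2 fold change of DKO over WT differed between the labelled stages by this test. It was more positive at E18 for Krt14 (12.10, adjusted p = 0.00224), Krt80 (11.96, adjusted p = 0.00243), Krt17 (11.03, adjusted p = 0.00102), Krt19 (3.12, adjusted p = 0.00411), Krt7 (3.08, adjusted p = 0.00026), Krt18 (2.60, adjusted p = 0.000321) and Krt8 (2.02, adjusted p = 0.00151). It was more negative at E18 for Krt20 (-4.82, adjusted p = 0.000226), Krt5 (-4.19, adjusted p = 0.0317) and Krt23 (-3.84, adjusted p = 0.000346). For Krt7, Krt8, Krt18, Krt19, Krt14, Krt17 and Krt80 the estimate was above 0 at E18 and below 0 at E12, and for Krt20 and Krt23 the reverse. That of Krt5 was below 0 at both, and none of the estimates at E12 was called. Without E12 WT 1, the library that stands apart in its group, the differences were 7.73 for Krt14, 6.69 for Krt80, 7.61 for Krt17 and 2.31 for Krt19, and all 4 were still called. The difference was called in all 20 alternatives run for these genes except Krt5, which was called in 10 of 20. Genotype, strain and developmental stage cannot be told apart in this difference.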

How the results depend on the processing

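Of 1028 recomputed fold changes of 50 named results, 985 kept direction and side of the threshold, 22 lost the call, 14 gained it and 7 changed sign. Between E12 DKO and E12 WT, where edgeR called 0 keratins, DESeq2's Wald test called 7, limma voom 1 and a fit that dropped both library 3 labelled E18 WT and E12 WT 1, chosen after seeing the data, 5. Leaving out 1 library gave 0 to 4, with 4 without E12 WT 1 and 3 without E12 WT 2. Between the wild-type groups DESeq2 called 4, and leaving out 1 library gave 0 to 1. The corresponding ranges were 9 to 13 for E18 DKO against the labelled E18 WT, 9 to 11 for E18 DKO against E12 DKO, and 9 to 12 for the difference. The cause of these changes was not tested.

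Sign changes lay in uncalled values. Krt5 between the wild-type groups ran from -0.62 (without library 3 labelled E18 WT) to 1.82 with 1 library left out, and was -0.28 without both libraries. Krt15 there ran from -6.82 to 2.02 (without E12 WT 1) and was 2.42 without both. In the difference, Krt13 ran from -1.06 (without E12 WT 1) to 5.28, and Krt15 from -1.98 (without it) to 6.86, and was -2.38 without both. Library size alone moved the median of all genes to -0.41 in the E18 genotype comparison, to -0.37 between the DKO stages, to 0.22 at E12, to 0.27 between the wild-type groups and to -0.65 in the difference.

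Over all genes, 64 were called at E12 (0 to 3753 over the alternatives), 7678 at E18 (5833 to 9452), 8349 between the DKO stages (6426 to 10371), 173 between the wild-type groups (35 to 1684) and 7600 for the difference (6198 to 8881). Replicate numbers did not pair the libraries: the 18 same-numbered pairs correlated from -0.18 to 0.29 and 5 exceeded 0.1. With the replicate block the keratin counts were 0 at E12, 10 at E18, 10 between the DKO stages, 0 between the wild-type groups and 10 for the difference, and Krt5 lost its call between the DKO stages (adjusted p = 0.0553) and in the difference (0.0551). At these depths 37 members had too few counts to be tested.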

Other observations

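The processed pseudogene Krt8-ps on chromosome 7, no member of the family as defined here, was at 9.45, 0.554 and 0.218 CPM in E18 DKO, against 0.415, 0.293 and 0.246 CPM in labelled E18 WT. It was at 2.93, 3.05 and 6.40 CPM in E12 DKO, against 6.30, 9.88 and 4.18 CPM in E12 WT. These values did not follow Krt8 itself, and reads of such a copy can be misassigned, so they are uncertain.

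Among members too low to test, Krt32, a hair keratin, was at 0 in all 6 DKO libraries and in 5 of the 6 wild-type ones, against 1.23 CPM in E12 WT 1. Krt12, the type I keratin of corneal epithelium, was at 0.110 CPM or less in the 6 DKO libraries and in labelled E18 WT, against 0.132, 0.535 and 1.18 CPM in E12 WT.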
